A study of Drosophila melanogaster with 20 samples.

Results

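The genes described here are mmy and ChLD3, a gene of chitin precursor synthesis and a gene of the chitin deacetylase family, in female fruit flies sprayed with botanical insecticides. They were taken as the spots whose only gene symbol is mmy or ChLD3 in the array's annotation, which gave 4 spots, a neighbouring duplicate pair for each gene, among 16896 spots and 2377 named genes. Both genes were picked with their values on these arrays known, so their values are given as a description and without a test of their own. Both were measured on all 20 arrays and entered the fit across 11526 features.

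Whole Oregon-R females of Drosophila melanogaster, 4 to 10 days past emergence, were misted in a Potter's tower, a laboratory spray chamber, with 2 mL of solution, and their RNA was taken 6 h later. The pepper group received an ethyl acetate extract of Piper nigrum seed at 0.2 mg/mL, the combination group the same extract at 0.1 mg/mL with pyrethrin at 0.004 mg/mL, and the pyrethrin group pyrethrin alone at 0.04 mg/mL, all in 99% ethanol. Controls received 99% ethanol alone, so treated and control flies shared strain, sex, age range and solvent. Each RNA extract pooled about 240 flies, and each treatment had 4 treated extracts, numbered 1 to 4 for pepper, 2, 4, 5 and 6 for the combination and 1, 2, 4 and 5 for pyrethrin. The labels do not say whether the extracts came from separate rearings, so the spread between extracts may in part be technical.

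Treated and ethanol RNA were labelled with different dyes and hybridised together on each array. The 8 pepper and combination extracts were hybridised on 2 arrays with the dyes exchanged, and the value of an extract is the mean of both. The 4 pyrethrin extracts had 1 array each, all with treated RNA in Cy3, and received for each gene a correction equal to the mean dye effect of the exchanged pairs. The dye effect of a pair was its Cy5 value minus its Cy3 value, divided by 2. That correction entered as a fixed amount, so the SEs and p-values involving pyrethrin below leave out its own error. Pyrethrin extracts 1 and 2 shared control extract 3, and extracts 4 and 5 shared control extract 4. By the source names, each pepper and combination extract had its own control extract, used on both of its arrays. For these 8 extracts, variation of the treated RNA and variation of the control RNA cannot be told apart. All values below are log2 ratios of treated over ethanol control, where 1 stands for a doubling. A ratio gives no level, so the marker genes of a tissue could not be checked by abundance, and in whole flies fewer cells of a type cannot be told apart from less RNA per cell.

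The direction of the ratio is likely but not stated in the labels. After the mean of each treatment and orientation was subtracted, the partner arrays of an extract correlated positively in 8 of 8 pairs (0.0413 to 0.54), the sign that values written as treated over control give. Without that subtraction the partner arrays correlated negatively in 6 of 8 pairs (-0.233 to 0.356), the sign that values written by channel give. Every sign below rests on that reading. With the values read by channel (Cy5 over Cy3), mmy stood at -0.40 after pepper, -0.46 after the combination and -0.21 after pyrethrin, and ChLD3 at -0.39, 0.085 and -0.35.

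Chitin is a polymer of N-acetylglucosamine that stiffens the cuticle, lines the tracheal tubes and forms part of the peritrophic matrix of the gut. Its building block is UDP-N-acetylglucosamine, the end product of the hexosamine pathway, and mmy (mummy) encodes the pyrophosphorylase that makes this nucleotide sugar in the last step. The same sugar also feeds N-linked glycans, GPI anchors and O-linked modification of proteins. Chitin deacetylases remove acetyl groups from finished chitin and so change how the fibres bind proteins. The family members serp and verm are known for their work in the tracheal matrix of the embryo, and ChLD3 is a further gene of this family.

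mmy varied widely between extracts of every treatment, and the treatment means lay close together. After pepper the 4 extracts stood at 0.61, -0.29, 0.69 and -0.08 for replicates 1 to 4. After the combination, replicates 2, 4, 5 and 6 stood at -0.03, 0.73, 0.28 and -0.17. After pyrethrin, replicates 1, 2, 4 and 5 stood at -0.44, 0.85, -0.14 and -0.30. Thus 5 of the 12 extracts lay above their control and 7 below it, every treatment held extracts on both sides, and the 3 ranges overlapped. Between the lowest and the highest of the 12 extracts, both of them pyrethrin extracts, the ratio of mmy differed 2.45-fold.

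The mean of mmy over 4 extracts was highest after pepper, at 0.23 with an SD of 0.489. The combination followed at 0.20 with an SD of 0.401 (n = 4), and pyrethrin came last at -0.01 with an SD of 0.586 (n = 4). In this order no neighbouring means differed by more than the spread between extracts. The differences were -0.03 ± 0.30 (limma SE) for combination minus pepper, 0.21 ± 0.30 for combination minus pyrethrin and -0.24 ± 0.30 for pyrethrin minus pepper. Single extracts weighed heavily in these means. Without replicate 2 the pyrethrin mean was -0.29, without replicate 3 the pepper mean was 0.08, and without replicate 4 the combination mean was 0.03. The dye correction of mmy was -0.43, and without it the pyrethrin mean was 0.42. The pepper and combination arrays of the same orientation, treated RNA in Cy3, averaged 0.63 and 0.67, so pyrethrin was again the lowest of the 3.

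In the extract values, ChLD3 showed the opposite arrangement, with a narrower spread between extracts and treatment means that lay apart. For pepper and the combination these values average both dyes, and the gap between these 2 treatments was absent with treated RNA in Cy5, as given below. After pepper the extracts stood at 0.01, 0.19, 0.27 and 0.21 for replicates 1 to 4. After the combination, replicates 2, 4, 5 and 6 stood at -0.28, -0.19, -0.04 and -0.29. After pyrethrin, replicates 1, 2, 4 and 5 stood at 0.11, 0.06, 0.28 and 0.29. All 8 extracts of the single sprays were above their control and all 4 of the combination below it. The combination thus overlapped with neither of the other groups, while pepper and pyrethrin overlapped. Pepper replicate 1 lay near 0, as the mean of 0.58 and -0.56 on its 2 arrays. Pepper replicate 4 was likewise the mean of opposed arrays, 0.82 and -0.40. The pyrethrin values include a dye correction of -0.15, averaged over pairs whose dye difference was positive after pepper and negative after the combination. Among the 10017 features measured in all 12 extracts, the combination and pepper did not overlap in 3.25% (with the combination lower in 1.72%), the combination and pyrethrin in 6.56% (with the combination lower in 2.87%), and pyrethrin and pepper in 4.6%. All 4 extracts were above the control in 6.63% of features after pepper and in 9.31% after pyrethrin, and all 4 were below it in 7.22% after the combination. ChLD3 was picked with this pattern known, so nothing is read from its place among them.

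The mean of ChLD3 was 0.18 after pyrethrin (SD 0.119, n = 4), 0.17 after pepper (SD 0.109, n = 4) and -0.20 after the combination (SD 0.116, n = 4). As folds these were 1.14, 1.12 and 0.87 of the ethanol control. Pyrethrin and pepper differed by 0.02 ± 0.13 (limma SE), within the spread. The combination lay 0.37 below pepper on the log2 scale (difference -0.37 ± 0.12, limma SE) and 0.38 below pyrethrin (difference -0.38 ± 0.13). These 2 differences share the combination extracts, and the doses of the combination are lower than those of the single sprays, so they do not compare like doses. The SEs of the differences with pyrethrin leave out the error of its dye correction. For ChLD3 the Cy3 minus Cy5 difference had an SD of 0.599 over the 8 pairs, and it enters that correction divided by 2.

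**Figure D1:**
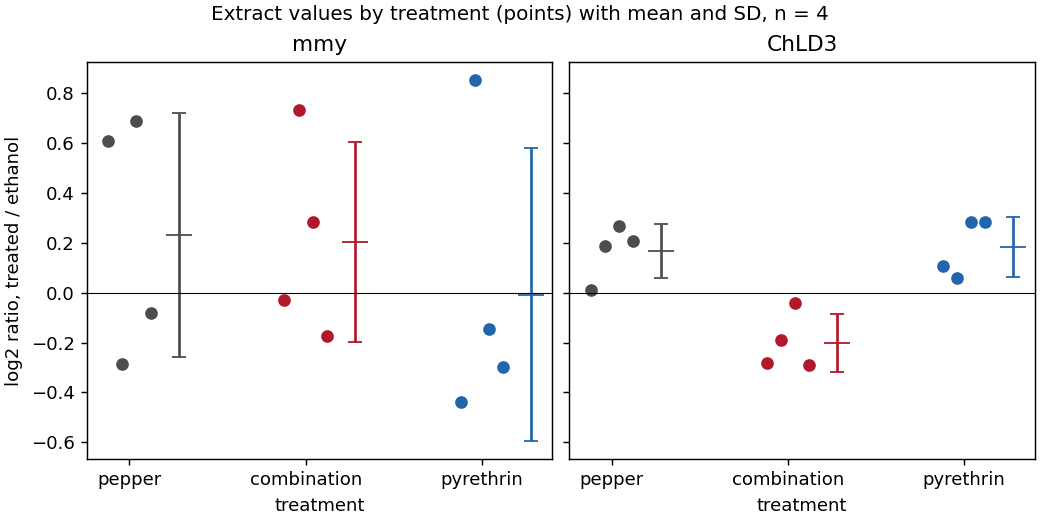
Log2 ratio of treated over ethanol control (y axis) of mmy and ChLD3 in the 4 extracts of each treatment (x axis), with points for extracts and bars for the mean and SD. The points of mmy spread from -0.44 to 0.85 with overlapping treatments, while those of ChLD3 stay between -0.29 and 0.29 with the combination below the other 2 treatments.

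The fit across all features is given as background. In it neither gene passed an adjusted p of 0.05 in any comparison (limma, Benjamini-Hochberg over all features). Over all features 0 of 11526 (0%) passed for pepper and 0 (0%) for the combination, with 377 (3.27%) and 1003 (8.7%) at an unadjusted p under 0.05. For pyrethrin 7 passed (0.0607%), all of them higher, with 1151 (9.99%) at an unadjusted p under 0.05. For each of the 3 differences between treatments 0 of 11526 (0%) passed, with 534 (4.63%) at an unadjusted p under 0.05 for combination minus pepper, 1391 (12.1%) for combination minus pyrethrin and 648 (5.62%) for pyrethrin minus pepper. Counts in other fits of the same data are given with the processing alternatives.

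The arrangement of both genes was set out by splitting the variation over the 12 extracts. For mmy the SD between extracts within treatments was 0.498, against a median of 0.244 over the 10017 features, and 4.16% of features varied at least as much. The SD of its 3 treatment means was 0.131, near the median of 0.121, and the treatments held 5.78% of its total sum of squares. For ChLD3 the SD between extracts was 0.115, and 3.43% of features varied less. With the second duplicate spot alone this SD was 0.239. It was 0.209 without the 2 pepper arrays whose titles name another study, which leaves 2 pepper extracts with their Cy3 array alone. The narrow spread of ChLD3 thus does not hold in either case. The SD of its treatment means was 0.217, and the treatments held 76.1% of its sum of squares, against a median of 17.8% over all features. That share was 47.4% with the second spot alone and 64.2% without those 2 arrays. With arrays scaled to 1 spread it was 56.3%, with an SD between extracts of 0.155 (median 0.222 over all features). Read by channel, the SD between extracts was 0.364 for mmy and 0.155 for ChLD3 (median 0.202), and the treatments held 10.7% and 72% of the sum of squares (median 25.2%). Both genes were chosen with these data known, and the places among all features describe how far each lies from the middle.

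**Figure D2:**
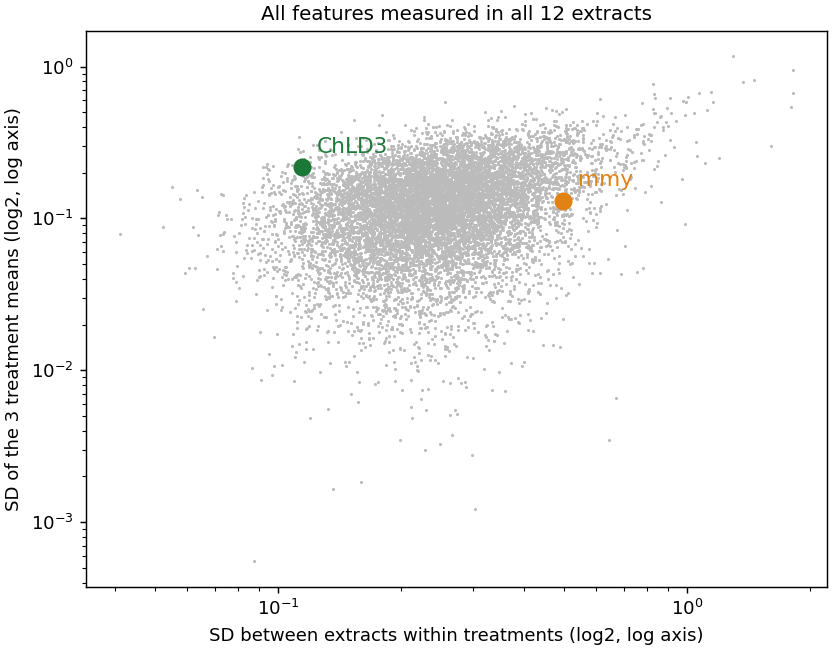
SD of the 3 treatment means (y axis, log2 units, log axis) against the SD between extracts within treatments (x axis, log2 units, log axis) for the 10017 features measured in all 12 extracts (grey), with mmy in orange and ChLD3 in green. mmy lies far to the right at 0.498 with treatment means of ordinary spread, and ChLD3 far to the left at 0.115 with treatment means that spread more than the median.

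The exchanged pairs show how far each extract value was repeated on a second array. With treated RNA in Cy3, mmy stood at 1.13, 0.03, 1.30 and 0.06 for pepper replicates 1 to 4 and at 0.36, 1.12, 0.80 and 0.38 for combination replicates 2, 4, 5 and 6. With the same RNA in Cy5 it stood at 0.08, -0.60, 0.08 and -0.22 and at -0.41, 0.34, -0.23 and -0.73. The Cy3 array was higher in 8 of 8 pairs, by 0.86 on average (SD 0.309), and 2.12% of features had a larger difference in that direction. Extracts that were high on one array of mmy were also high on the other: across the 8 pairs Pearson's r was 0.80 and Spearman's rho 0.67, and r was 0.73 without the 2 pairs farthest from the median on the Cy3 axis. These coefficients are a description over 8 pairs whose 2 arrays share both the treated and the control RNA extract, and the median r over all features was 0.249.

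For mmy, then, the position of an extract was repeated in both dyes while the height of the ratio depended on the dye. Pepper replicates 1 and 3 and combination replicate 4 were the 3 highest of the 8 extracts in both orientations. The highest pyrethrin extract, replicate 2, and the lowest, replicate 1, were hybridised against the same control extract 3, and they lay 1.29 apart. Both duplicate spots of mmy gave the same picture, with a correlation of 0.86 over the 20 arrays (rho 0.83) and a median difference between spots of 0.235.

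High values of mmy also went with a high correlation between duplicate spots, though only in the Cy3 orientation. On the 12 arrays with treated RNA in Cy3, the 5 with the highest correlation between neighbouring duplicate spots over all features (0.6 to 0.707) held the 5 highest values of mmy (0.80 to 1.30). On the other 7 arrays the duplicate spots correlated at 0.19 to 0.418 and mmy stood at -0.01 to 0.38. On the 8 arrays with treated RNA in Cy5 the order differed: combination replicate 6 had the highest duplicate correlation, 0.728, and the lowest mmy value, -0.73. With every array scaled to a common spread the SD of mmy between extracts was 0.401. What part the duplicate correlation and the spread of the arrays have in it was not tested.

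For ChLD3 the 2 arrays of an extract disagreed most in 2 of the pepper extracts. With treated RNA in Cy3, pepper replicates 1 to 4 stood at 0.58, 0.34, 0.50 and 0.82. With treated RNA in Cy5 the same extracts stood at -0.56, 0.04, 0.03 and -0.40. The 2 pepper extracts that were highest in Cy3 were thus the lowest in Cy5. Averaged over both arrays, replicate 4 stood at 0.21, between replicates 2 and 3, and replicate 1 at 0.01, the lowest of the 4. Combination replicates 2, 4, 5 and 6 stood at -0.36, -0.19, -0.20 and -0.39 in Cy3 and at -0.21, -0.18, 0.12 and -0.19 in Cy5. Replicates 4 and 5 were the higher 2 in Cy3, while in Cy5 replicates 2, 4 and 6 lay close together below replicate 5. Across the 8 pairs Pearson's r between partner arrays was -0.36 (rho -0.33), and 0.63 without pepper replicates 4 and 1, so its sign rests on those extracts. After the treatment means were subtracted r was -0.43, against a median of 0.327 over all features.

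The gap between the combination and pepper in ChLD3 was present in one dye orientation. With treated RNA in Cy3 the combination averaged -0.29 (SD 0.105, n = 4) and pepper 0.56 (SD 0.2, n = 4), a difference of -0.84 with no overlap. With treated RNA in Cy5 the combination averaged -0.11 (SD 0.155, n = 4) and pepper -0.22 (SD 0.305, n = 4), a difference of 0.11 with overlapping arrays. The 4 pyrethrin arrays, all with treated RNA in Cy3, stood at 0.26, 0.21, 0.44 and 0.44 before the dye correction, with a mean of 0.34. They differed from pepper in the same orientation by -0.22 on average and overlapped with it. In that orientation the combination minus pyrethrin was -0.62, without overlap. The Cy3 array of an exchanged pair was the higher in 4 of 4 pepper pairs and the lower in 4 of 4 combination pairs, for a mean difference of 0.30 (SD 0.599, 8 pairs). The dye correction of the pyrethrin values, -0.15, is taken from that mean. Corrected, the pyrethrin extracts averaged 0.08 against control extract 3 and 0.28 against control extract 4. Whether the dye effect of this gene differed between the treatments was not tested.

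**Figure D3:**
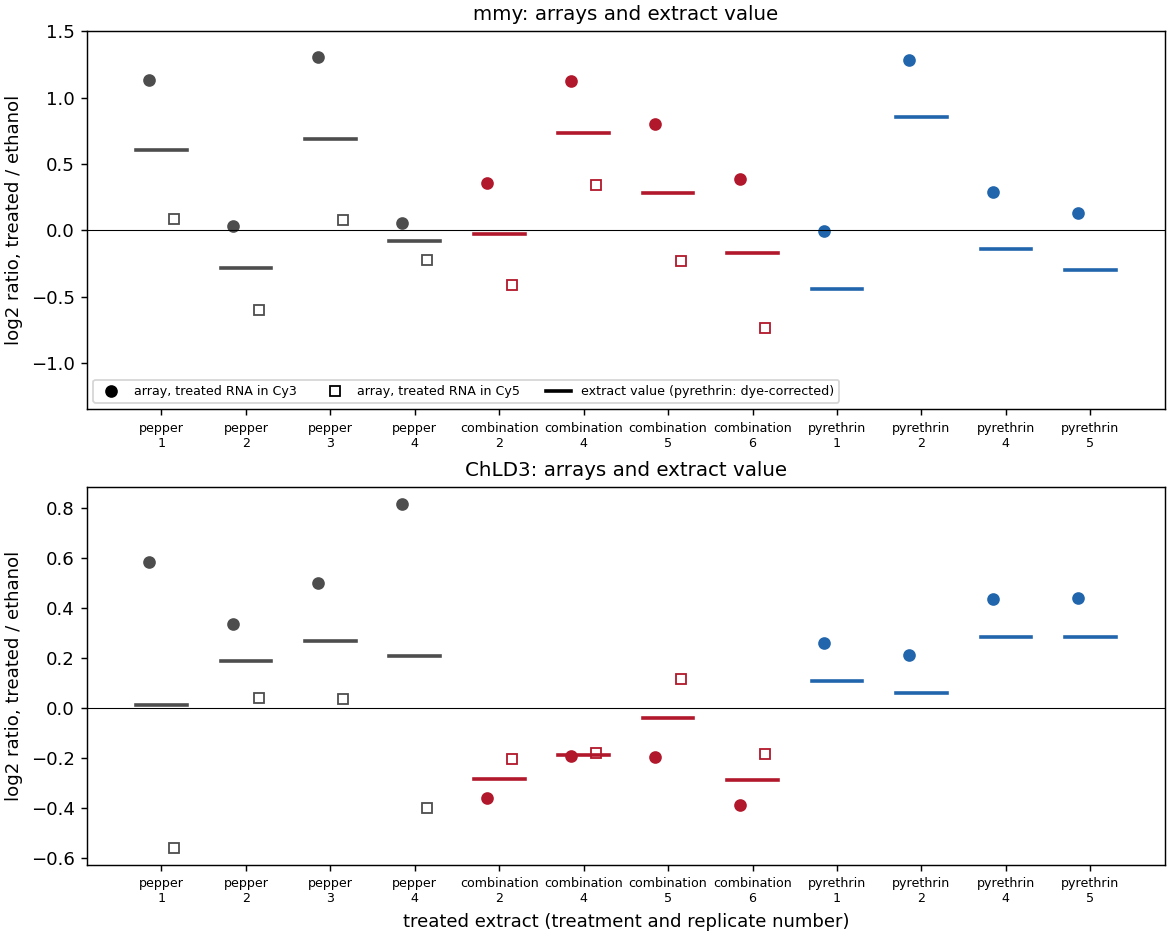
Log2 ratio of treated over ethanol control (y axis) of mmy and ChLD3 on every array, by extract (x axis). Filled circles are arrays with treated RNA in Cy3, open squares arrays with it in Cy5, and lines the extract values, which for pyrethrin include the dye correction. For mmy each circle lies above its square, and for ChLD3 the circles of pepper and the combination lie apart while the squares overlap.

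**Figure D4:**
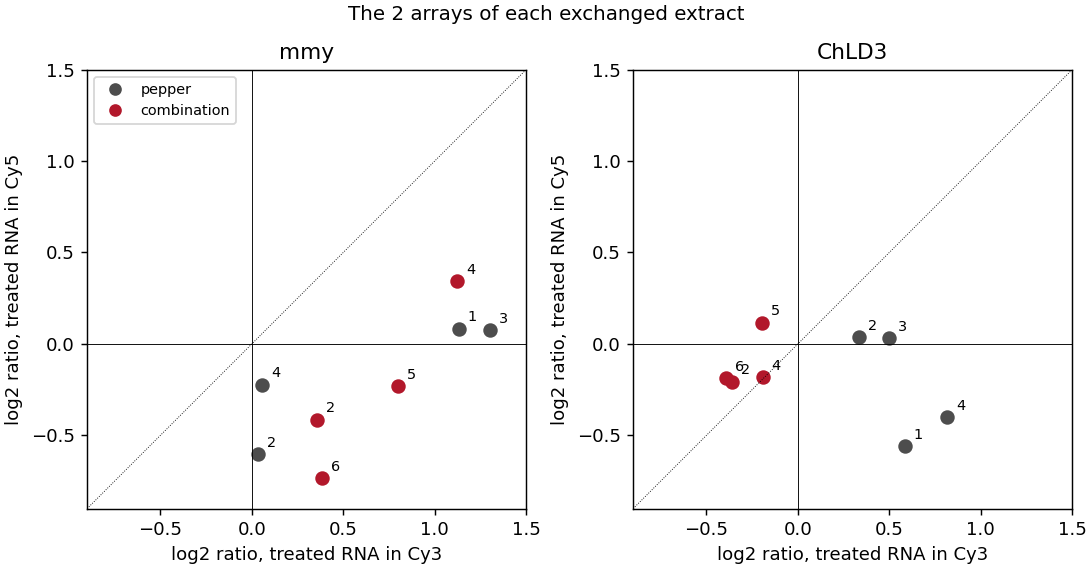
Log2 ratio with treated RNA in Cy5 (y axis) against the ratio with treated RNA in Cy3 (x axis) for the 8 exchanged extracts, numbered by replicate, with the dotted line where both are equal. The points of mmy rise together below the line (r = 0.80), and those of ChLD3 separate into treatments along the Cy3 axis and overlap along the Cy5 axis.

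The duplicate spots of ChLD3 correlated at 0.54 over the 20 arrays (rho 0.51), with a median difference of 0.26 and a largest of 0.847. On the Cy5 arrays of pepper replicates 2 and 3 the spots had opposite signs, -0.30 against 0.38 and -0.39 against 0.46. Each spot taken alone gave a negative difference of combination minus pepper, -0.28 and -0.46. The Cy5 arrays of pepper replicates 3 and 4 carry titles that name another study, and without these 2 arrays the pepper mean of ChLD3 was 0.35 and the difference -0.55. Replicates 3 and 4 then rest on their Cy3 arrays alone, at 0.50 and 0.82 before the dye correction of the remaining pairs. The larger difference thus cannot be told apart from the loss of their dye exchange.

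The 2 genes did not vary together. Over the 12 extracts their values correlated at -0.17 (rho -0.30), and at -0.02 without the 2 extracts farthest from the median of mmy. With the treatment means subtracted the correlation was -0.16.

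The genes most like mmy over the 12 extracts, among 1930 named genes measured in all of them, were CG32767 (r = 0.96), Ent1, a nucleoside transporter (0.96), Lsd-2, a perilipin that coats lipid droplets (0.95), Nup54, a nuclear pore protein (0.93), and Pi3K59F, the class III phosphatidylinositol 3-kinase (0.93). With treatment means subtracted Lsd-2, Ent1, Pi3K59F and CG32767 stayed among the 5 most alike (0.96 each), with Hsp68, a stress-inducible chaperone, as the fifth (0.95). Lsd-2 shared the 5 extracts above 0.20, at 0.41 and 0.39 in pepper replicates 1 and 3, 0.39 and 0.21 in combination replicates 4 and 5 and 0.76 in pyrethrin replicate 2. In all, 86 of the 1930 genes correlated with mmy above 0.8 and 67 below -0.8. The same counts for a typical gene were not made, so these are not shown to be particular to mmy.

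The genes most like ChLD3 were Orai, the store-operated calcium channel (r = 0.82), X11L (0.82), Ogdh, a subunit of the 2-oxoglutarate dehydrogenase complex (0.79), CG6497 (0.79), and slmb, an F-box protein of a ubiquitin ligase (0.79). With treatment means subtracted they were FBXO11 (0.88), hydra (0.87), Tgi (0.87), DUBAI (0.78) and CG11929 (0.77), with 0 genes shared between both sets. Of the 1930 genes 2 correlated with ChLD3 above 0.8 and 9 below -0.8. All extracts of a gene pair share their arrays, so these correlations describe likeness on the same arrays.

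The other measured genes of UDP-N-acetylglucosamine synthesis varied less between extracts than mmy. Gfat2, which feeds fructose 6-phosphate into the hexosamine pathway, stood at 0.18, 0.17 and -0.04 after pepper, the combination and pyrethrin. Gnpnat, the acetyltransferase of the pathway, stood at 0.00, 0.05 and 0.05, and nst, the phosphoacetylglucosamine mutase that supplies the substrate of mmy, at -0.07, -0.04 and -0.07. Their SDs between extracts were 0.22, 0.133 and 0.176, against 0.498 for mmy. With mmy included, 3, 3 and 1 of the 4 measured genes lay above the control, where 51.4%, 53.7% and 48.6% of all features did, the medians were 0.09, 0.11 and -0.02 against 0.00, 0.01 and -0.01 over all features, and 0 of 4 passed in limma or reached an unadjusted p under 0.05 in any treatment. The chitin synthase genes are not analysed here.

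Among chitin deacetylases and matrix proteins, verm, a chitin deacetylase, stood at 0.02, 0.04 and 0.14 in the same order. obst-A, a chitin-binding matrix protein, stood at 0.11, 0.13 and -0.14, and obst-B at -0.09, -0.19 and 0.02. The apical matrix proteins pio and dpy stood at 0.04, 0.04 and -0.22 and at 0.31, 0.10 and 0.51. With ChLD3 included, 5, 4 and 4 of the 6 measured genes lay above the control with medians of 0.08, 0.04 and 0.08. Of all features 51.4%, 53.7% and 48.6% lay above it. Of the 6, 0 passed in limma. Beside ChLD3, which has no test of its own here, dpy after pyrethrin was the 1 case with an unadjusted p under 0.05 (0.51 ± 0.18, limma SE).

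The enzymes that break chitin down and their relatives had 4, 2 and 1 of 5 measured genes above the control, with medians of 0.03, -0.06 and -0.04. Idgf3, an imaginal disc growth factor related to chitinases, stood at 0.01, -0.09 and 0.43 ± 0.13 (limma SE) and was the 1 gene of these with an unadjusted p under 0.05, after pyrethrin. The chitinase gene Cht7 stood at -0.17, 0.08 and -0.09, and fdl, a hexosaminidase that trims N-glycans, at 0.08, -0.11 and -0.05. Of the other users of UDP-N-acetylglucosamine 4, 4 and 1 of 5 were above the control with medians of 0.05, 0.11 and -0.12. Among them the heparan sulfate polymerase genes sotv and botv stood at 0.30, 0.11 and -0.14 and at -0.19, 0.26 and -0.21, and Mgat3, a glycosyltransferase of N-glycans, at 0.04, 0.14 and 0.02. The unadjusted p was under 0.05 for sotv after pepper and botv after the combination. In both groups 0 of 5 passed over all features in any treatment. For the counts above the control, the shares of all features were 51.4%, 53.7% and 48.6%.

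**Figure D5:**
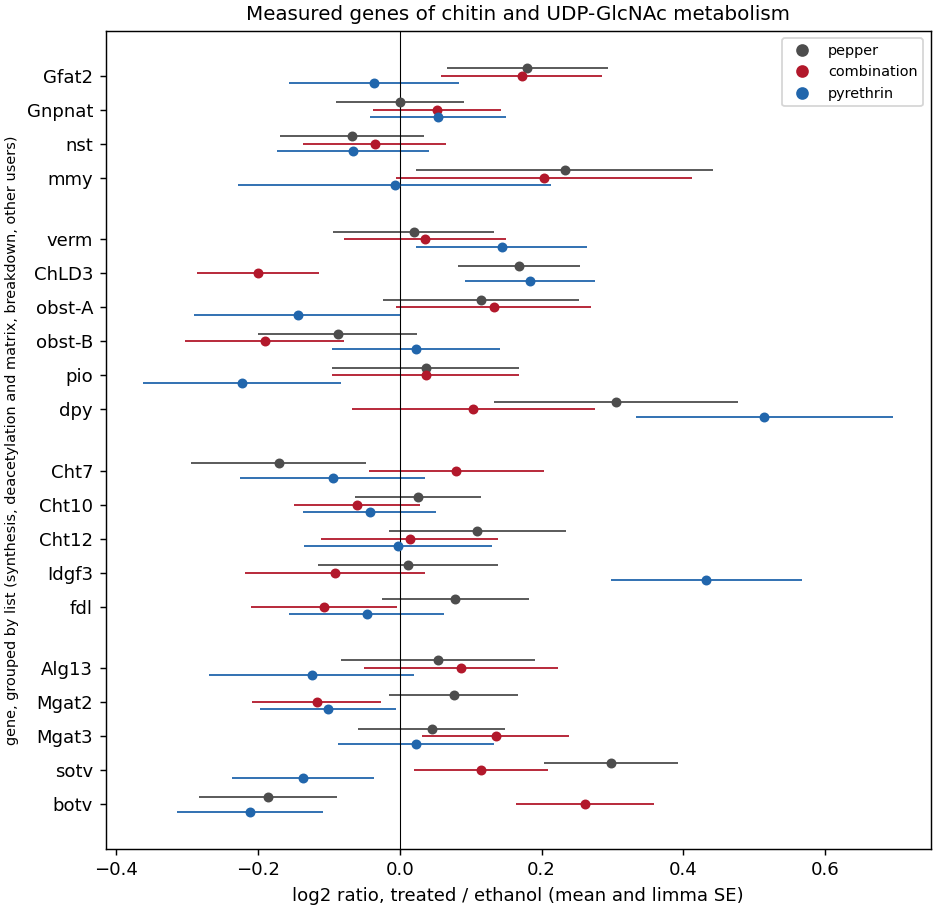
Mean log2 ratio of treated over ethanol control with its limma SE (x axis) for the measured genes of chitin and UDP-N-acetylglucosamine metabolism (y axis), in grey for pepper, red for the combination and blue for pyrethrin. mmy has the widest error bars of its group, and ChLD3 lies at -0.20 after the combination and at 0.17 and 0.18 after the other sprays.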

How the data were processed

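The deposited values are log2 ratios of the 2 channels of each array. The base was inferred from the largest value, 14.3, since natural logarithms of 16-bit signals cannot exceed 11.1. How the authors normalized them is not given in the sources used here, and signal intensities were not used. The number of extracts limits the precision (median SE 0.123 to 0.13). The array medians lay within 0.0365 of 0, and each was subtracted. The arrays held 13953 to 16853 values, and the duplicate spots correlated at 0.172 to 0.728. Spots of 1 gene symbol (5666 spots) were averaged, then the arrays of an exchanged pair, both being required. The dye effect needed at least 4 pairs. Features measured in at least 3 of 4 extracts of every treatment were fitted in R 4.3.3 with limma 3.58.1 and statmod 1.5.0. Each treatment had its mean, with weights by kind of value (pair or single array), and arrays sharing a control formed a random block (correlation 0.0646). The named genes are both members, all measured genes of their 2 pathway lists, the 3 smallest p of each other list and the 5 most alike by Pearson's r. The members and lists were chosen with earlier results of these data known. Groups come from the source names. The alternatives concerned direction, dye, centring, scale, filter, weights, blocks, spots and single extracts. The share between treatments under these, and the repeats for ocn, were added after seeing the data.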

Additional observations from a re-analysis of the deposited data

Results flagged for a closer look

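ChLD3 stood above the control in all 4 pepper extracts and, after the dye correction, in all 4 pyrethrin extracts. It stood below the control in all 4 combination extracts. This opposite placing marks the differences of combination minus pepper, -0.37, and of combination minus pyrethrin, -0.38. They were not tested as differences of this gene, since it was picked with them known, and both turn sign with the values read by channel. The first was -0.84 on the arrays with treated RNA in Cy3 and 0.11 on those with it in Cy5. No extract of mmy or ChLD3 stood far enough from the other 3 of its group to pass Dixon's 95% critical value for 4 samples. The largest gap was 0.771 of the range, for mmy in pyrethrin replicate 2.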

How the results depend on the processing

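Read by channel, the calls were 2264 for pepper, 1918 for the combination, 90 for pyrethrin, 235 for combination minus pepper, 43 for combination minus pyrethrin and 9 for pyrethrin minus pepper; mmy stood at -0.40 after pepper and -0.46 after the combination, and ChLD3 at -0.39, 0.085 and -0.35 after pepper, the combination and pyrethrin, with differences of 0.48 (combination minus pepper) and 0.44 (combination minus pyrethrin). Without the dye correction there were 132 calls for pyrethrin and 1 for each difference with pyrethrin. ChLD3 then stood at 0.34 after pyrethrin, with differences of -0.54 (combination minus pyrethrin) and 0.17 (pyrethrin minus pepper). On the arrays with treated RNA in Cy3 alone the calls were 247, 370 and 1 for the treatments, mmy stood at 0.67 after the combination, and ChLD3 at 0.56 after pepper and 0.34 after pyrethrin, with differences of -0.84, -0.62 and -0.22 (pyrethrin minus pepper). Without the 2 arrays with foreign titles ChLD3 stood at 0.35 after pepper, its difference of combination minus pepper was -0.55 and its SD between extracts 0.209. In that case 2 pepper extracts rest on their Cy3 array alone. The first duplicate spot of ChLD3 gave 0.14 for pyrethrin minus pepper, and the second -0.11, with an SD of 0.239. The pyrethrin calls were 15 with arrays scaled to 1 spread, 13 over features measured in all 12 extracts, 12 without weights, 15 without the control block, 23 with the control number of the title as block, and 0 in the fit of all 20 arrays and without control extract 4. Without control extract 3 there was 1 call for combination minus pyrethrin. Leaving out single extracts gave 0 to 7 calls for pyrethrin (0 without replicate 1 or 4), 0 to 4 for the combination (4 without replicate 4) and 0 to 2 for combination minus pyrethrin (2 without combination replicate 5). Where a pyrethrin extract or a control extract was left out, the correlation of shared controls could not be estimated and the fit had no block. Extracts with the same replicate number correlated at -0.35 to 0.16 over 8 pairs, 1 of them over 0.1. Extracts of different treatments with other numbers correlated at -0.51 to 0.52 over 40 pairs, 18 of them over 0.1. The numbers are thus not shown to pair the extracts, and the replicate block gave 0 calls for each difference. Of 936 recomputed values of the other named genes 75 moved by at least 1 SD and 150 turned sign. The causes were not tested. The spread between arrays, with 4 extracts a treatment, limits all values.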

Other observations

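The 6 measured cuticle protein genes, whose products bind chitin in the exoskeleton, stayed near the control, with 2 of 6 above it after each spray, medians of -0.04, -0.01 and -0.01 after pepper, the combination and pyrethrin, and 0 of 6 past the threshold in limma (Cpr49Ac after pepper was the 1 case with an unadjusted p under 0.05). Of all features 51.4%, 53.7% and 48.6% lay above the control. Cpr49Ac stood at -0.19, -0.08 and 0.01, Cpr72Ec at -0.09, -0.02 and 0.06, and Lcp65Ag3 at -0.10, -0.11 and -0.14. The gut mucin gene Muc68D stood at 0.16, 0.14 and -0.01, with an SD between extracts of 0.566, close to that of mmy.

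Markers of other tissues gave few measured genes. Beside their counts, 51.4%, 53.7% and 48.6% of all features lay above the control after pepper, the combination and pyrethrin (medians 0.00, 0.01 and -0.01). The lipase gene mag, for the midgut, stood at -0.11, -0.01 and -0.09, and the yolk protein receptor gene yl, for the ovary, at -0.15, -0.29 and 0.04. The hemocyte genes had 0, 1 and 1 of 3 above the control (Pxn at -0.13, 0.01 and 0.08, NimC1 at -0.19, -0.06 and -0.05, vkg at -0.08, -0.16 and -0.06). The male accessory gland and testis genes had 2, 1 and 4 of 4 above it, with medians of 0.01, -0.12 and 0.25. Of these, ocn stood at -0.01, 0.29 and 1.05 and was the 1 marker that passed in limma, after pyrethrin (adjusted p = 0.0476). It passed in 15 of 25 alternative fits (adjusted p 0.0111 to 0.597), and in none of the 4 without a pyrethrin replicate, nor without either control extract or with all 20 arrays. Among the 15 was the reading by channel, in which ocn had the opposite sign, at -0.66. Acp36DE stood at 0.03, -0.20 and 0.35 and Acp53C14a at 0.11, -0.17 and 0.06. Their part in the values of mmy and ChLD3 was not tested.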
